A study of Sus scrofa with 12 samples.

Results

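PLAC8, TMEM52 and B3GNT2 were followed in the ovary of gilts that came into estrus and of full sisters that did not. Each gene had 1 row under its name in the deposited table, so they make up 3 of 29150 loci. They were picked because, in an earlier look at these same libraries, they stood among the 8 largest called rises averaging at least 1 FPKM. Their difference between the groups is therefore given as a description, with no test. B3GNT2 stood just inside that limit with a log2 difference of 0.96, and KLF9 just outside it with 0.88. PLAC8 and TMEM52 averaged 1.03 and 1.10 FPKM, just over the abundance limit. They met it only through ES, since their NES means were 0.620 and 0.737 FPKM.

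The ES group holds 6 New French Yorkshire gilts with consecutive estrus cycles, killed at the third estrus. The NES group holds 6 gilts of the same line, full sisters of the former, in which no estrus was seen. No transgene or drug is named for either group, and age at slaughter is not given in the sources used here. All ES ovaries were taken at estrus, so the stage at sampling and the history of cycling cannot be told apart. Total RNA of the whole left ovary was sequenced after removal of ribosomal RNA, 1 library per gilt. In whole tissue, fewer cells of a type and less RNA per cell cannot be told apart.

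PLAC8 encodes a small cysteine-rich protein first found in placenta and known from myeloid cells, epithelia and invading trophoblast. TMEM52 encodes a membrane protein whose function is little known. B3GNT2 encodes a Golgi enzyme that adds N-acetylglucosamine to galactose. Acting in turn with galactosyltransferases, it builds poly-N-acetyllactosamine, the repeating sugar chain on glycoproteins that galectins bind.

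The libraries held 58140547 to 68961955 counts, and a count of 0 would allow up to 0.0430 to 0.0519 CPM (the count of a locus scaled to library size). Such limits and all Poisson intervals below cover counting error only. Library sizes were adjusted with TMM factors (0.891 to 1.08), and FPKM values, which also account for length, are the authors'. Of 20421 loci whose FPKM averaged 0.5 or more, edgeR's quasi-likelihood test called 193 (0.945%) at a Benjamini-Hochberg adjusted p under 0.05, 31 higher and 162 lower in ES. The summed granulosa cell markers ran from 648.1 CPM in ES3 to 11450 in ES1, against 1692 to 4982 in NES. Theca cell markers ran from 162.4 CPM in ES3 to 2729 in ES6, against 779.0 to 1353 in NES. Such sums follow their most abundant genes, and the members of both lists went both ways. Of 12 granulosa markers tested, 7 had a positive log2 difference and edgeR called 1 lower and 0 higher in ES. Of 8 theca markers, 4 were positive, and 3 were called lower and 0 higher, against 0.793% and 0.152% of all loci. Oocyte markers were between 24.37 and 50.74 CPM in every library. Some ES libraries stood apart in markers of other cells. Macrophage and monocyte markers (15 of 16 measured) summed to 1503 CPM in ES3, against 129.0 to 189.9 in the other ES and 105.2 to 248.4 in the NES libraries. Neutrophil markers (9 of 10) summed to 70.27 CPM in ES3, 13.72 in ES6 and at most 5.345 elsewhere, with FCN1, LTF, MPO, S100A8, S100A9 and S100A12 each at 0 in some library. Epithelium markers (9 of 13) summed to 142.4 CPM in ES6, against 11.8 to 21.06 in the other ES and 4.257 to 18.71 in the NES libraries, with CLDN4, KRT18 and LRRN4 at 0 in some library. Ciliated cell markers (7 of 8) summed to 241.8 CPM in ES6 and to at most 38.3 elsewhere, with FOXJ1, RSPH1, DNAI1, CFAP43 and TEKT1 at 0 in some library. The part of these markers in the results below was not tested beyond the values given without those libraries.

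PLAC8 (MSTRG.22919, chr8:135245027-135279050 on the plus strand of Sscrofa11.1) was 2.49 times as high in ES as in NES ovaries. In the ES group its level was lowest in ES2 at 4.92 CPM, had a median of 8.15 and was highest in ES6 at 13.1. In the NES group it ran from 2.31 CPM in NES6 through a median of 3.77 to 5.22 in NES5. Thus 5 of 6 ES libraries lay above every NES library, and only ES2 fell within the NES range. The group levels were 8.85 ± 3.10 CPM in ES and 3.56 ± 1.10 in NES (SD, n = 6 each), a log2 difference of 1.31 ± 0.27 (SE).

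The scatter of PLAC8 between gilts was far wider than counting gives. Its coefficient of variation was 35.0% in ES and 30.9% in NES, against 4.32% and 6.59% from counting alone. The lowest count, 139 in NES3, has a 95% Poisson interval of 117 to 164, and the highest, 825 in ES6, one of 770 to 883. ES6, with the highest PLAC8, was also the library with the most epithelium and ciliated cell RNA, and without it the log2 difference was 1.17. ES3, with the most macrophage RNA, had 6.98 CPM of PLAC8, below the ES median. Without ES3 and ES6 together the log2 difference was 1.22.

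TMEM52 (MSTRG.19044, chr6:63969440-63974289 on the minus strand) was 2.14 times as high in ES ovaries. Its ES levels were 6.09 CPM at the lowest (ES3), 7.60 at the median and 9.74 at the highest (ES1). Its NES levels were 2.40 CPM at the lowest (NES5), 3.49 at the median and 5.35 at the highest (NES6). The groups did not overlap. Every ES library was above every NES library for 0.509% of the loci tested and below for 0.906%, shares from which nothing follows here because the contrast chose the gene. The group levels were 7.72 ± 1.54 and 3.62 ± 1.07 CPM (SD, n = 6 each), and the log2 difference was 1.09 ± 0.21 (SE). The ES libraries were the tighter set for TMEM52, with a coefficient of variation of 19.98% against 29.58% in NES.

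B3GNT2 (MSTRG.14523, chr3:79667696-79704048 on the minus strand) was 1.95 times as high in ES ovaries. In ES it was lowest in ES2 at 34.6 CPM, had a median of 39.6 and was highest in ES1 at 74.1. In NES it ran from 18.6 CPM in NES4 through a median of 23.3 to 28.8 in NES1. Again no ES library lay within the NES range. The group levels were 45.4 ± 14.7 and 23.4 ± 3.62 CPM (SD, n = 6 each), a log2 difference of 0.96 ± 0.19 (SE). ES1 stood well above the other ES libraries, the next of which was ES6 at 47.3 CPM. Without ES1 the log2 difference was 0.76. The coefficient of variation was 32.2% in ES and 15.5% in NES, against 1.91% and 2.58% from counting.

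**Figure D1:**
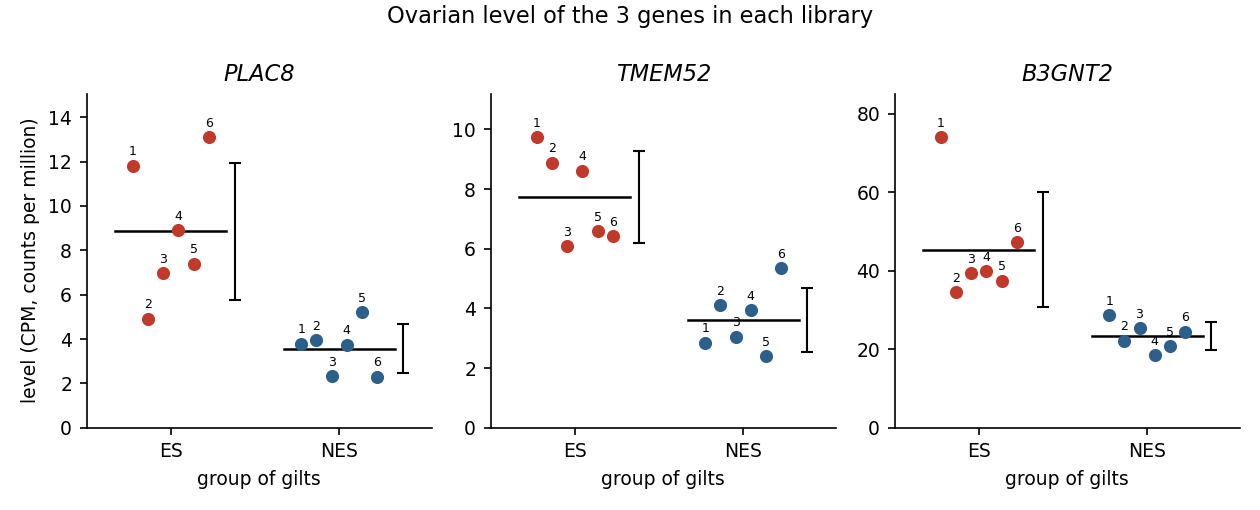
Level of each gene (CPM) in the 6 ES and 6 NES libraries, with the library number beside each point, the group mean as a line and the SD as a bar. PLAC8 overlapped through ES2 (4.92 CPM) and NES5 (5.22 CPM), while TMEM52 and B3GNT2 did not overlap.

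Per length, all 3 genes were of low to middling abundance. Mean FPKM was 1.45 ± 0.489 in ES and 0.620 ± 0.187 in NES for PLAC8, 1.47 ± 0.246 and 0.737 ± 0.225 for TMEM52, and 2.60 ± 0.686 and 1.44 ± 0.246 for B3GNT2. On this scale B3GNT2 was the highest in 12 of 12 libraries. TMEM52 was above PLAC8 in 8 libraries and below it in 4, and in each group their means differed by less than their SD. By mean FPKM, PLAC8 stood at percentile 17.2 of the loci tested, TMEM52 at 19.5 and B3GNT2 at 51.1.

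From gilt to gilt within the groups, no pair of the 3 genes passed a test of moving together. After group means were removed from log2 CPM, over 12 libraries, PLAC8 and TMEM52 gave Pearson's r = -0.31 (permutation p = 0.331, adjusted over 3 pairs 0.496) and Spearman's rho = -0.30 (p = 0.360). PLAC8 and B3GNT2 gave r = 0.35 (permutation p = 0.316, adjusted 0.496) and rho = 0.34 (p = 0.311). That value rested on ES1 and ES6: without them r was -0.20. TMEM52 and B3GNT2 gave r = 0.16 (permutation p = 0.609, adjusted 0.609) and rho = 0.14 (p = 0.675). Without the 2 libraries farthest from the median, r became -0.48 for PLAC8 and TMEM52 and 0.27 for TMEM52 and B3GNT2. No test compared r between the groups. For PLAC8 and B3GNT2 r was 0.75 among ES and -0.42 among NES libraries. It was -0.02 and -0.56 for PLAC8 and TMEM52, and 0.41 and -0.11 for TMEM52 and B3GNT2. A missed threshold over 12 libraries does not show that the genes vary independently.

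Because assembled loci can share reads, the loci on top of each gene were examined next. The libraries are strand-specific, but the strand setting of the counting is not given in the sources used here. Without it, reads from overlapping loci on opposite strands cannot be told apart.

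At B3GNT2 an unnamed locus on the opposite strand differed between the groups as well. This locus, MSTRG.14524 (chr3:79694850-79729294, plus strand), covers 9199 bases at the 5′ end of B3GNT2 and runs on beyond it. It lies outside the naming rule and was singled out after its values were seen. Its level was 6.53 to 10.6 CPM in ES (median 8.60) and 3.81 to 5.71 in NES (median 4.45), so the groups did not overlap. The log2 difference was 0.86 ± 0.17, and edgeR's quasi-likelihood test gave an adjusted p of 0.042, where 0.152% of loci were called higher in ES. The locus may hold reads of B3GNT2, which this contrast chose, so this p is given as a description. The call was fragile: it was lost in 11 of 12 fits that left out 1 library (adjusted p 0.0239 to 0.104, held only without NES6). It was called in 9 of 24 alternatives in all, with adjusted p from 0.000364 to 0.114. The log2 difference stayed between 0.48 and 0.92 in all 24.

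MSTRG.14524 also followed B3GNT2 from gilt to gilt. Within groups r was 0.73 (permutation p = 0.00503, adjusted over 4 overlapping or copied loci 0.0201) and rho 0.76 (p = 0.00958, adjusted 0.0383). Without ES1 and NES4, the libraries farthest from the median of B3GNT2, r was 0.69. The value was 0.75 among ES libraries and 0.75 among NES libraries. Its counts came to 14.3 to 23.4% of those of B3GNT2. Whether these are reads of 1 transcript or of a pair was not tested. If reads are shared, r between the loci is raised in advance, so its p is a description as well.

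TMEM52 lies wholly within a much more abundant locus on the other strand. All 4850 bases of it are spanned by the joined locus CALML6;GNB1, which includes the gene of a G protein beta subunit. That locus stood at 295.2 ± 31.23 CPM in ES and 296.9 ± 37.98 in NES, a log2 difference of -0.01 ± 0.11 (edgeR adjusted p = 0.980). TMEM52 counts equalled only 1.89% of those of CALML6;GNB1. Within groups r between them was 0.18 (permutation p = 0.609, adjusted 0.609), with rho 0.31 (p = 0.359) and r = -0.07 without NES1 and NES5. The sign of the CALML6;GNB1 difference changed when some libraries were left out.

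PLAC8 meets COPS4, a subunit of the COP9 signalosome, over 209 bases at its 3′ end. COPS4 stood at 43.7 ± 2.25 CPM in ES and 47.5 ± 4.50 in NES, a log2 difference of -0.12 ± 0.09 (edgeR adjusted p = 0.521). A second locus described in the table as a placenta-specific gene 8 protein, LOC100524999 (MSTRG.22918, chr8:135199455-135236308), lies 8719 bases before PLAC8 on the same strand. It fell under the abundance filter and was not tested. It stood at 0.387 to 1.31 CPM in 11 libraries and at 6.80 CPM (428 counts) in ES6, the library with the highest PLAC8. Within groups r with PLAC8 was 0.28 (permutation p = 0.443, adjusted 0.590), rho was 0.21 (p = 0.536), and r was 0.15 without ES1 and ES6. How alike the sequences of the loci are, and whether reads are shared between them, was not tested.

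**Figure D2:**
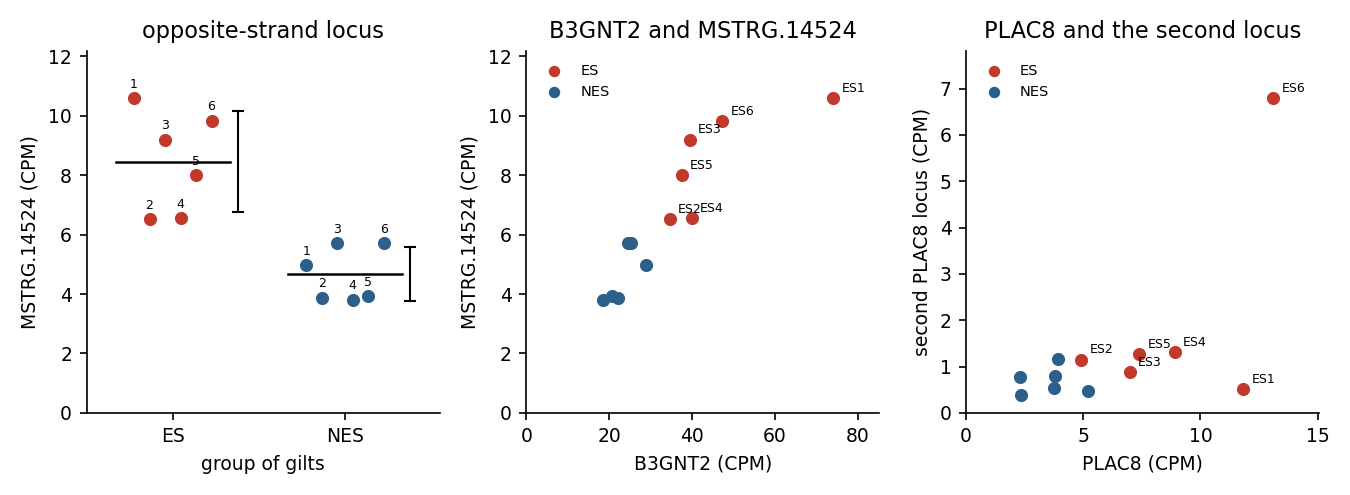
Left, the opposite-strand locus MSTRG.14524 (CPM) by group with mean line and SD bar; middle, MSTRG.14524 against B3GNT2 (both CPM); right, the second PLAC8 locus against PLAC8 (both CPM). MSTRG.14524 reached 6.53 to 10.6 CPM in ES and 3.81 to 5.71 in NES, and only ES6 had much of the second PLAC8 locus (6.80 CPM).

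Of the nearest named loci around the 3 genes, overlapping ones included, 17 could be tested, and 1 had an unadjusted p under 0.05, as had 1941 loci higher and 1387 lower among all 20421. With 0.945% of all loci called by edgeR and 5.17% by DESeq2, the 0 calls that both made among 17 say nothing particular about the neighbours. The 1 locus was PRKCZ, protein kinase C zeta, 98981 bases from TMEM52, at 8.37 ± 1.46 CPM in ES and 5.89 ± 1.51 in NES (log2 difference 0.51 ± 0.19, edgeR adjusted p = 0.209). The other 16 lay between -0.22 and 0.22. HPSE, GABRD and LOC100524999 were under the filter.

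**Figure D3:**
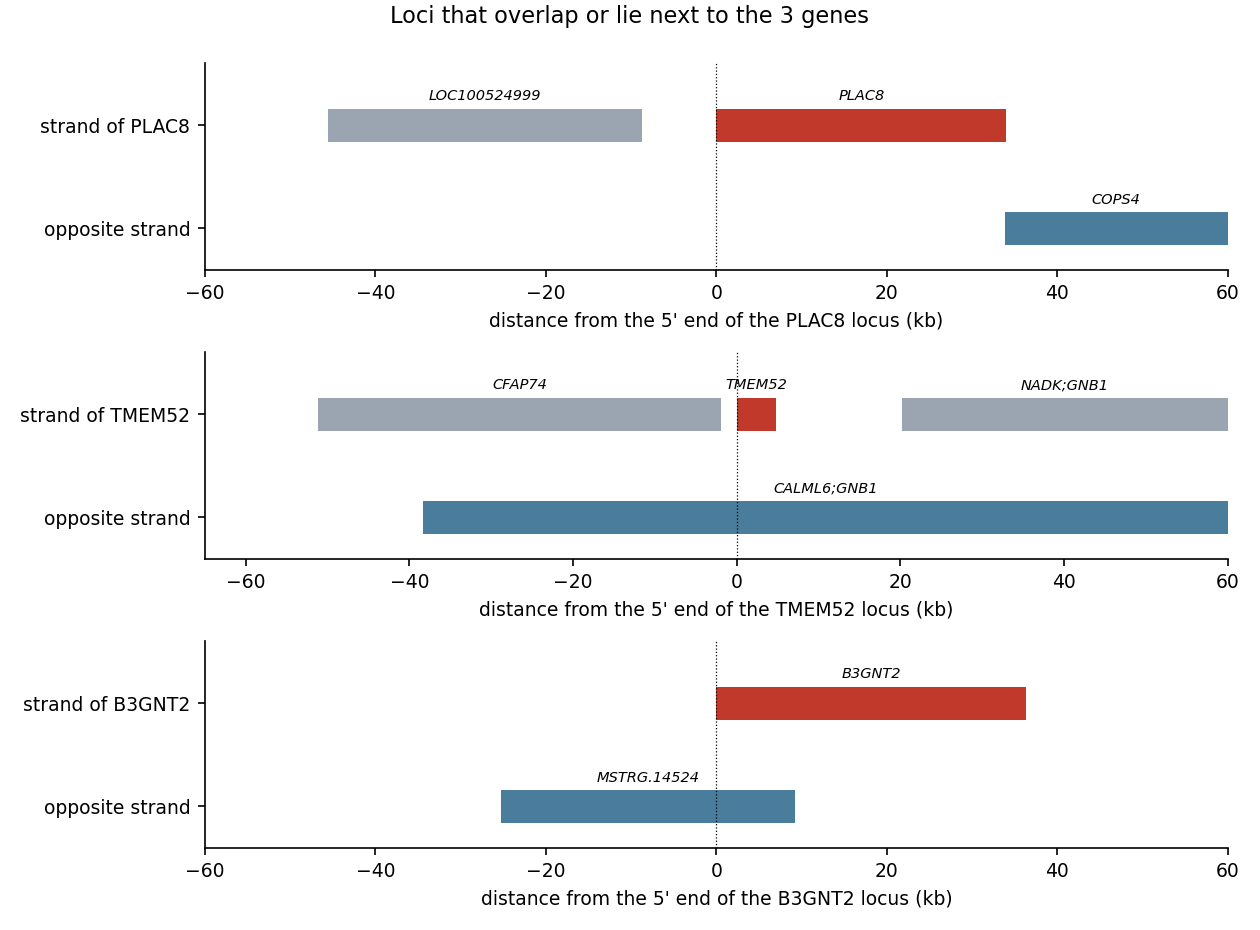
Loci on or beside each gene, drawn to scale as distance in kb from its 5′ end with strands apart; boxes span whole loci, introns included (red the gene, blue overlapping loci, grey others, cut at the panel edge). MSTRG.14524 overlaps the 5′ end of B3GNT2 by 9199 bases, CALML6;GNB1 spans the 4850 bases of TMEM52, and COPS4 meets the 3′ end of PLAC8.

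Glycan genes listed around B3GNT2, some of which act on other sugar chains, had more positive than negative differences. Over 5 lists (relatives of B3GNT2, partners in chain building, capping enzymes, galectins and carrier proteins), edgeR called 0 of 49 genes tested, near the 0.945% called of all loci. At an unadjusted p under 0.05 there were 8 higher and 1 lower, against 1941 higher and 1387 lower of all 20421 loci. In all, 34 of 49 had a positive log2 difference, with a median of 0.20, against 56.16% positive and a median of 0.043 over all loci. DESeq2, which called 5.17% of all loci (2.26% higher and 2.91% lower), called 3 of these genes, ST3GAL5, LGALS3 and LGALS9.

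Among 16 tested relatives of B3GNT2 in the beta-1,3-glycosyltransferase family, 11 had a positive difference and the median was 0.06. B3GNT3, a close relative that acts on mucin-type chains, had a log2 difference of 0.34 ± 0.33 (edgeR adjusted p = 0.652), which turned to -0.044 without ES3. B3GNT5, which starts the lacto-series of glycolipids, stood at -0.24 ± 0.24 (adjusted p = 0.657). B3GNT9 stood at 0.03 ± 0.14 (adjusted p = 0.935), with a sign that changed under upper quartile scaling. Per length B3GNT9 was the more abundant, at a mean FPKM of 11.0, against 2.58 for B3GNT3, 2.02 for B3GNT2 and 1.46 for B3GNT5. C1GALT1, which makes the core of mucin-type chains, was at 83.3 ± 27.1 CPM in ES and 56.5 ± 7.86 in NES (0.56 ± 0.19, adjusted p = 0.172). B3GALT5 was at 3.396 ± 2.175 and 1.460 ± 0.586 CPM (1.22 ± 0.49, adjusted p = 0.247). B3GNT6, B3GNT7 and B3GNT8 were under the filter, and B3GNT4 and LFNG lay only in joined loci.

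Of 14 partners in chain building, 9 had a positive difference and the median was 0.15. MGAT5, which makes the branch that favours long chains, had a log2 difference of 0.66 ± 0.24 (edgeR adjusted p = 0.200), which was 0.36 without ES4. B4GALT5, a galactosyltransferase, had 0.39 ± 0.18 (adjusted p = 0.304), and 0.24 without ES3. B4GAT1, which acts on the sugars of dystroglycan, was the 1 gene with an unadjusted p under 0.05 in the other direction, at -0.56 ± 0.23 (adjusted p = 0.256). Of 11 capping enzymes, 6 were positive, and ST3GAL5, which makes the ganglioside GM3, came closest to a call at 0.67 ± 0.18 (adjusted p = 0.0932), and 0.44 without ES3 and ES6. ST6GAL1, which caps chains with sialic acid, had 0.77 ± 0.35 (adjusted p = 0.296), and 0.28 without ES3.

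All 4 galectins tested, the lectins that read these chains, had positive differences, with a median of 0.73. LGALS9 had 1.23 ± 0.30 (edgeR adjusted p = 0.0685) and LGALS3 2.14 ± 0.70 (adjusted p = 0.165). LGALS3 is also abundant in macrophages, and without ES3, the library rich in macrophage RNA, its log2 difference was 0.90. LGALS8 and LGALS1 had 0.23 and 0.22. The carriers LAMP1, LAMP2, BSG and PTPRC had a median of 0.29, with 0 of 4 at an unadjusted p under 0.05.

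**Figure D4:**
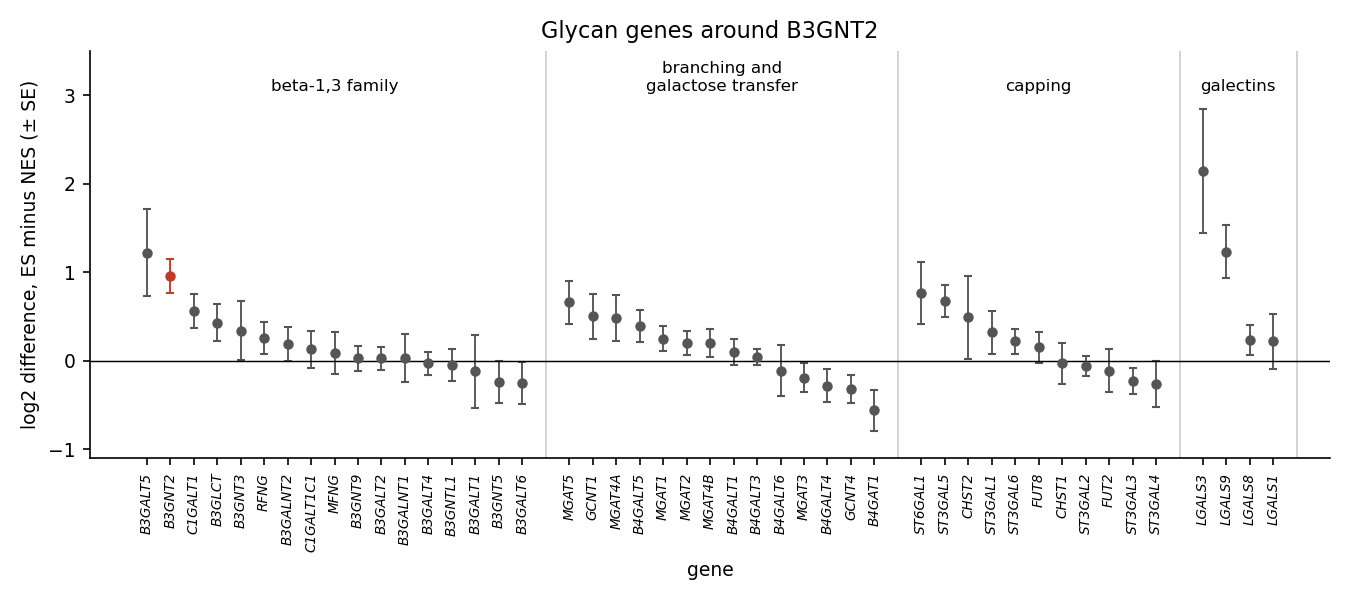
Log2 difference (ES minus NES, points with SE bars) of B3GNT2, in red, and of the tested family members, chain-building partners, capping enzymes and galectins; carrier proteins are not drawn. B3GNT2 (0.96) is shown for scale only since it was chosen by this contrast, and the wide bars of LGALS3 (0.70) and B3GALT5 (0.49) reflect the spread between gilts.

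The relatives and partners of PLAC8 and TMEM52 gave little to compare. PLAC8L1, a relative of PLAC8, was under the filter at 0.111 CPM in ES and 0.0858 in NES, and so was TMEM52B at 0.787 and 0.664. Among reported partners of PLAC8, the transcription factor CEBPB had a log2 difference of 1.02 ± 0.33 (edgeR adjusted p = 0.158). The scramblase PLSCR1 had 0.33 ± 0.15 (adjusted p = 0.287), and the p53 regulator MDM2 had -0.07 (adjusted p = 0.852).

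The loci most like each gene were then ranked by r within groups among 17314 named loci. No locus passed the adjustment for any of the 3 genes by Pearson's r or Spearman's rho (permutations within groups, smallest adjusted p for r 0.808 for PLAC8, 0.326 for TMEM52 and 0.373 for B3GNT2). Unadjusted p was under 0.05 for 813 loci with PLAC8, 1194 with TMEM52 and 1913 with B3GNT2. The names that follow are thus descriptions of 12 libraries. They also moved with the settings, as given under the processing alternatives.

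For PLAC8 the closest loci were MMAB, an enzyme of vitamin B12 use (r = 0.86, rho = 0.83), SYNJ2BP, a mitochondrial outer membrane protein (r = 0.85), SLC10A7 (r = 0.85), SDHC, a subunit of succinate dehydrogenase (r = 0.84), and GATC (r = 0.84). MMAB had a mean FPKM of 0.51, just over the filter of 0.5. The locus named SLC10A7 was short (chr8:82208971-82209652). The most opposite were PTK7, a Wnt co-receptor (r = -0.95, rho = -0.92), HIP1 (r = -0.93) and FNBP1L (r = -0.93). PTK7 kept r = -0.93 without the 2 libraries farthest from the median of PLAC8. Ranked over all libraries, with the group difference left in, the interferon-response genes IFI44L;IFI44, UBE2L6 and IFIH1 stood among the first places, as did FAM107B. Their order there holds the group difference that chose PLAC8. Within groups UBE2L6 gave r = 0.74 and rho = 0.78, with r = 0.55 without the 2 farthest libraries. IFIH1 gave r = 0.99 among ES and 0.20 among NES libraries, and FAM107B 0.91 and 0.27. The values were closer for IFI44L;IFI44 (0.84 and 0.63) and UBE2L6 (0.86 and 0.56).

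For TMEM52 the closest loci were POLR2J, a subunit of RNA polymerase II (r = 0.92, rho = 0.85), RRP1, a ribosome assembly factor (r = 0.92, rho = 0.89), LOC100517759 (r = 0.90), CCDC9;INAFM1 (r = 0.89) and EIF4E2, a cap-binding protein (r = 0.88). The most opposite were PHF6 (r = -0.90), ZC3H11A (r = -0.89) and SLC35D1 (r = -0.88). Over all libraries the first places went to ERN1, a sensor of unfolded proteins, SLC13A4, PDGFA, COBLL1 and DISP1. Their order there holds the group difference that chose TMEM52. ERN1 stood there by its locus MSTRG.3988 (mean FPKM 1.76), while its more abundant locus MSTRG.3987 (3.02) was not in these places. Within groups MSTRG.3988 gave r = 0.69 and rho = 0.70.

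For B3GNT2 the closest loci were WDR49 (r = 0.94, rho = 0.86), CSRNP1, a nuclear factor (r = 0.93, rho = 0.88), HADHA, an enzyme of fatty acid oxidation (r = 0.93, rho = 0.85), LEPROTL1 (r = 0.93) and ADGRA3 (r = 0.92). The locus named WDR49 was short (chr13:106347947-106348172), with a mean FPKM of 0.632. The most opposite were MOCS2 (r = -0.95, rho = -0.91), the locus named ssc-mir-125b-1 (r = -0.93) and HDHD3 (r = -0.92). Without the 2 libraries farthest from the median of B3GNT2, r fell to 0.70 for CSRNP1 and 0.73 for HADHA, and MOCS2 kept -0.89. Over all libraries HKDC1, AGFG2, CDKN1A and PDE4D stood among the first places. Their order there holds the group difference that chose B3GNT2. Within groups HKDC1 gave r = 0.84, but only 0.33 without those 2 libraries. AGFG2 gave 0.77 and 0.34 in the same way, CDKN1A 0.70 and 0.45, and PDE4D 0.82 and 0.32.

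The 3 genes were then set against lists of cell type markers and response genes inside the groups, where no single pair passed. Of 492 pairs of a gene with a list member, 29 had an unadjusted permutation p under 0.05 and 0 an adjusted one, by r or by rho (smallest adjusted p for r 0.281). The medians below are descriptions and share the same 12 libraries.

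PLAC8 was positive with 9 of 9 interferon-response genes, with a median r of 0.60. The median was 0.85 among ES and 0.06 among NES libraries, and 0.28 without ES1 and ES6. PLAC8 was also positive with 5 of 5 epithelium markers (median 0.40, and 0.51 without ES1 and ES6) and with 0 of 14 macrophage and monocyte markers (median -0.20, and 0.0 without ES1 and ES6). With 7 lymphocyte markers its median was -0.43, and -0.16 without those libraries. Summed interferon-response RNA ran from 260.7 to 1121 CPM in ES, highest in ES1, and from 217.4 to 367.4 in NES. In edgeR 8 of these 9 genes had an unadjusted p under 0.05, all higher in ES, as had 1941 of all 20421 loci. Of the 9 genes 0 were called higher, against 0.152% of all loci.

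TMEM52 was positive with 6 of 6 oocyte markers, with a median r of 0.73 (0.71 among ES, 0.78 among NES, 0.60 without the 2 farthest libraries). The oocyte markers OOSP2, BMP15 and ZP4 gave 0.82, 0.79 and 0.78, and GDF9, the lowest, gave 0.34 (permutation p = 0.304). OOSP2 was sparse, at a mean of 23.75 counts. An unadjusted permutation p under 0.05 was found for 5 of 6, and for 1194 of all 17314 named loci. TMEM52 was also positive with 9 of 9 endothelial markers and 9 of 10 smooth muscle and pericyte markers. Their medians were 0.25 and 0.29, and 0.41 and 0.44 without the 2 farthest libraries. Between the groups, 0 of 6 oocyte markers had a positive difference, with 0 called, 0 at an unadjusted p under 0.05 and a median log2 difference of -0.18. With the interferon-response genes the median r of TMEM52 was 0.14.

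B3GNT2 was positive with 12 of 12 granulosa cell markers (median r 0.49, and 0.32 without the 2 farthest libraries). This was not particular to granulosa cells. Positive too were 10 of 10 smooth muscle and pericyte markers, 7 of 8 luteal markers and 11 of 14 ovulatory-response genes. Their medians were 0.22, 0.34 and 0.44, and -0.06, 0.12 and 0.12 without the 2 farthest libraries. B3GNT2 was positive with 9 of 9 interferon-response genes as well, with a median of 0.58, which was 0.63 without those libraries, 0.79 among ES and -0.17 among NES libraries. ES1, with the most B3GNT2, had the highest summed levels of many lists: granulosa, luteal, oocyte, smooth muscle, stromal matrix, red blood cell, ovulatory-response and interferon-response genes. With 7 lymphocyte markers the median r of B3GNT2 was -0.51. Without the 2 farthest libraries it was -0.33, and among NES libraries 0.10. With oocyte markers the median was 0.23 and turned to -0.34 without those 2 libraries. PLAC8 had -0.38 there, and -0.53 without ES1 and ES6.

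**Figure D5:**
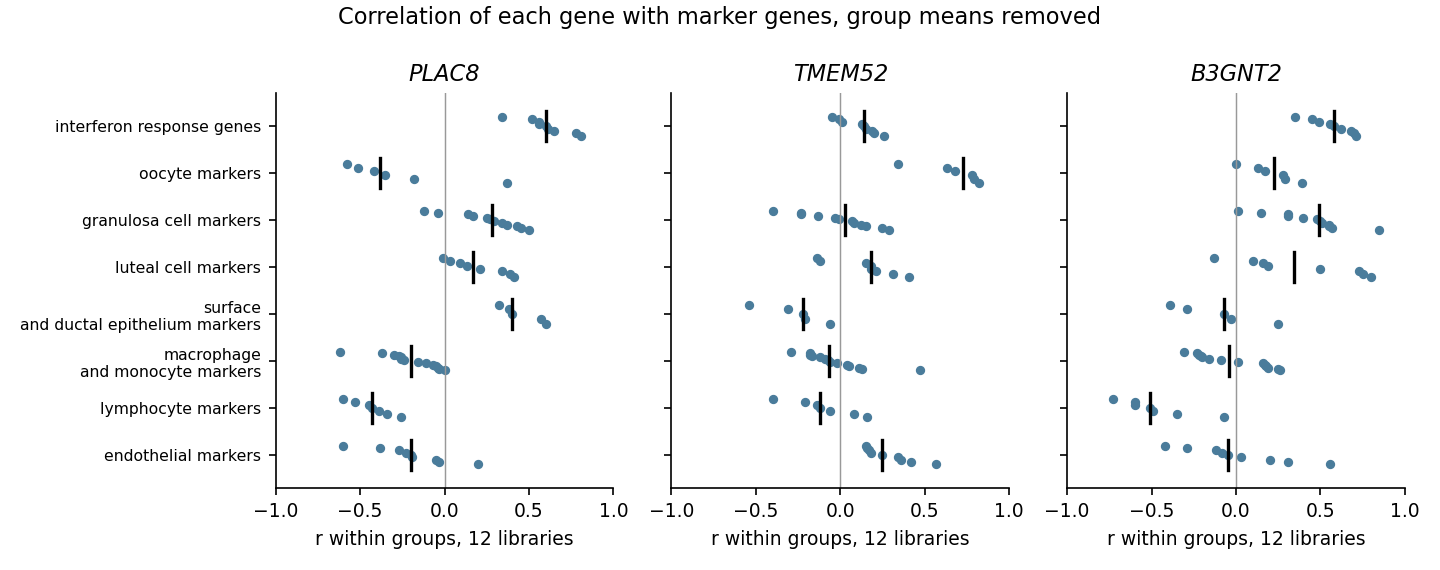
Pearson's r within groups (log2 CPM, group means removed, 12 libraries) of PLAC8, TMEM52 and B3GNT2 with each member of 8 lists of cell type markers or response genes; each point is 1 list gene and the black bar the median. TMEM52 sits high with oocyte markers (median 0.73), and PLAC8 and B3GNT2 with interferon-response genes (0.60 and 0.58).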

How the data were processed

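Ovarian RNA of 6 ES and 6 NES gilts was analysed, grouped by sample title. Per the submitters' processing notes, cutadapt, FastQC, HISAT2 and TopHat were used with Sscrofa11.1; no source used here names versions, the counting program or its strand setting. Deposited by the authors were raw counts and FPKM values of 29150 loci, per the file headers. The 3 genes and all lists were chosen with earlier results of these data known.

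Counts were tested with edgeR 4.0.16 (R 4.3.3; TMM, group only) on loci averaging 0.5 FPKM or more, and alternatively with DESeq2 1.42.0 and limma 3.58.1. The SE is that of the edgeR log2 difference. Correlations used log2 CPM (prior count 2) with group means removed and 100000 permutations within groups (smallest possible p 1e-05). On simulated data edgeR recovered 4 of 50 changes of 1.5-fold, 15 of 50 of 2-fold and 41 of 50 of 3-fold. Differences of 2-fold or less that were not called may therefore have been missed. Named genes were the 3 nearest named loci on each side, the 5 closest and 3 most opposite loci within groups, the 5 closest over all libraries, and up to 8 (family) or 4 (other glycan lists) genes of smallest p. List genes in joined loci were left out. Title numbers match between groups, but the labels do not tie them to litters. Same-numbered libraries correlated by -0.028 to 0.242 (r of deviations, 6 pairs), against a median of -0.029 for other pairs. These values do not settle whether same numbers are litter pairs. The main fit left them unpaired for want of a label, and the replicate block is given as an alternative. Loci without a symbol were named from their description (2413), a name table (408) or RefSeq overlap (413). One gene among the closest loci is not reported here.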

Additional observations from a re-analysis of the deposited data

Results flagged for a closer look

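In 7 of 44 groups of 6 libraries checked, the highest library lay farther from the others than Dixon's 95% limit allows. That limit is for normally spread, independent groups, while these were CPM values from the same 12 libraries. No rate expected by chance is therefore given. B3GNT2 in ES1 was among the 7, at 74.08 CPM, and so was the second PLAC8 locus in ES6, at 6.796 CPM. Summed macrophage and monocyte markers (1503 CPM) and neutrophil markers (70.27 CPM) set ES3 apart. Epithelium markers (142.4 CPM) and ciliated cell markers (241.8 CPM) set ES6 apart. Red blood cell markers summed to 6.297 CPM in ES1, the library with the most B3GNT2.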

How the results depend on the processing

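The log2 differences of PLAC8, TMEM52 and B3GNT2 stayed positive in every alternative run. On log2(FPKM + 0.5) PLAC8 fell to 0.78 and TMEM52 to 0.68, and on log2(FPKM + 1) the 3 genes had 0.58, 0.51 and 0.55, since a larger pseudocount shrinks low genes. Leaving out 1 library gave 1.17 to 1.46, 1.00 to 1.24 and 0.76 to 1.03. With the title number as a replicate block they were 1.29, 1.12 and 0.92. Libraries of the same number were not shown to be pairs, and 3 of 6 ES libraries correlated best with their own number.

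The number of called loci was far less stable. It was 295 with upper quartile factors, 28 with no filter, 1055 with DESeq2, 337, 334 and 319 with limma on log2(FPKM + 0.5, 0.1 and 1), 0 with the replicate block (2708 at an unadjusted p under 0.05) and 1 without ES3 and ES6, an alternative chosen after seeing the data. Leaving out 1 library gave 0 to 415, with 0 when any of NES1, NES3, NES4, NES5 or of ES2, ES4, ES6 was left out, 1 without NES2, 68 without ES5, 85 without ES3 and 415 without NES6. The causes were not tested.

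Of the 10 loci closest to PLAC8, TMEM52 and B3GNT2, Spearman's rho kept 5, 5 and 2, log2(FPKM + 0.5) kept 6, 5 and 9, and leaving out 1 library kept 2 to 7, 2 to 9 and 1 to 9. CALML6;GNB1 ran from -0.054 to 0.056 with 1 library left out, turning to between 0.00033 and 0.056 without ES4, ES5, ES6, NES3 or NES4 in turn (0.018, 0.028 and 0.0098 among them) and to 0.033 without ES3 and ES6. B3GNT3 turned to -0.044 without ES3 and -0.28 without ES3 and ES6. B3GNT9 turned to -0.011 with upper quartile factors, -0.058, -0.06 and -0.056 with limma on FPKM, -0.10 on TPM, -0.04 to -0.0054 (0.11 at the highest) without ES1, ES3, NES3 or NES6 in turn (-0.029 and -0.014 between), and -0.011 without ES3 and ES6. DESeq2 called ST3GAL5, LGALS3, LGALS9, CEBPB and MX2 among the named genes, and edgeR called LGALS9 without ES5. Counts of 139 to 825 for PLAC8 and 157 to 563 for TMEM52 limit precision less than the spread between gilts does.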
